A study of Mus musculus with 6 samples.

Results

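The muscle-type microRNAs (miRNAs) are the mature products numbered miR-1a, miR-1b, miR-133a, miR-133b, miR-206 and miR-499, and they were taken by name from a table of 756 mature miRNAs measured in mouse dorsal striatum. Of the 756, 7 fitted these names: mmu-miR-133a-3p, mmu-miR-133b-3p, mmu-miR-1a-3p, mmu-miR-206-3p, mmu-miR-499-5p, mmu-miR-1b-3p and mmu-miR-133a-5p, written below without the species prefix. Of these 7, 6 had enough reads to be tested. In the withdrawal group (n = 3), C57BL/6N mice aged 7 weeks had nicotine at 0.5 mg/kg on 3 days and, 24 hours after the last dose, mecamylamine at 3.0 mg/kg, a blocker of nicotinic acetylcholine receptors that precipitates withdrawal. In the control group (n = 3), mice of the same strain and age had saline, so nicotine and mecamylamine cannot be told apart in this comparison. The striatum was collected 1 week after the last injection, and each library was taken as 1 mouse. If libraries shared an animal, the p-values would measure only the spread between these samples.

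miRNAs repress messenger RNAs by base pairing, mainly through a short seed near their 5′ end. miR-1, miR-133 and miR-206 are known from skeletal and heart muscle: miR-1 and miR-206 share a seed and favour differentiation of muscle cells, while miR-133 favours their proliferation and acts on serum response factor. miR-1 and miR-133a are cut from common transcripts at a pair of loci, and miR-206 and miR-133b from another transcript. In the nematode Caenorhabditis elegans, miR-1 acts on nicotinic acetylcholine receptor subunits at the neuromuscular junction. In the brain, miR-133b has been studied in midbrain dopamine neurons and miR-206 as a repressor of Bdnf, which encodes brain-derived neurotrophic factor.

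RefSeq (GRCm38.p6) had the mature sequence of 3 of the 7 members. They are printed because their seeds set the families apart, with miR-208b-3p, a heart and slow muscle miRNA encoded in Myh7, beside miR-499-5p. Capitals mark the seed, bases 2 to 8 from the 5′ end.
miR-206-3p: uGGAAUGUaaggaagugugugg
miR-133b-3p: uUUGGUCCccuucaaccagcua
miR-499-5p: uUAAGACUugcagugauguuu
miR-208b-3p: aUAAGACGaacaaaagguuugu
miR-206-3p lies at chr1:20679055-20679076 and miR-133b-3p at chr1:20682834-20682855, both on the plus strand and within the gene of the long non-coding RNA Lincmd1. miR-499-5p lies at chr2:155622893-155622913 on the plus strand within Myh7b, a myosin heavy chain gene. miR-208b-3p lies at chr14:54975710-54975731 on the minus strand. The seeds of miR-499-5p and miR-208b-3p shared 6 of 7 bases. The precursors of miR-206 and miR-133b are shown to place the measured 3p arm, in capitals, in the hairpin.
Mir206: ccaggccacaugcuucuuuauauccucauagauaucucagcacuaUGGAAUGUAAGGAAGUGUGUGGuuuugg
Mir133b: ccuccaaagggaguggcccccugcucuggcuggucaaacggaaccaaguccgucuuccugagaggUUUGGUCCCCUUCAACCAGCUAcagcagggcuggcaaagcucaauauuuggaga
miR-133a-3p and miR-133b-3p are nearly identical, so the authors' counting may have split or shared reads between them. Mir1a-1 and Mir133a-2 lie in the long non-coding RNA gene Mir1a-1hg, and Mir1a-2 and Mir133a-1 in Mir133a-1hg within Mib1. Mir1b overlaps Mir1a-2.

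Values are normalized reads, taken here as counts that the authors scaled with a size factor for each library. All libraries stood on whole multiples of a step, and if a step is 1 read they held 44529730 to 53262896 reads in withdrawal and 40111870 to 50480767 in controls. Against such totals the muscle-type miRNAs were scarce. Their 7 members summed to 7384, 7171 and 7148 normalized reads in withdrawal libraries and to 7041, 7189 and 7097 in controls. That was 0.0161% to 0.0167% of all reads in withdrawal and 0.0155% to 0.0160% in controls. The neuronal miR-124-3p, miR-9-5p, miR-128-3p, miR-138-5p and miR-137-3p together stood at 2823646 to 2895895 in withdrawal and 2895465 to 2916436 in controls, so the libraries carried the neuronal miRNAs of the labelled tissue.

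The members kept one order of level in all 6 libraries, from miR-133a-3p at place 192 of 756 through miR-133b-3p (357), miR-1a-3p (388), miR-206-3p (466), miR-499-5p (537) and miR-1b-3p (592) to miR-133a-5p (727). These are levels in normalized reads of mature miRNAs of nearly equal length, and no neighbours in this order overlapped. miR-133a-3p was 8.87 times the level of miR-133b-3p, and miR-133b-3p 1.46 times that of miR-1a-3p, as ratios of means over all libraries. miR-1a-3p was 2.94 times the level of miR-206-3p. miR-499-5p, at 47.3 or more, and miR-1b-3p, at 42.8 or less, stood apart by a small margin, as did miR-1b-3p, at 13.3 or more, and miR-133a-5p, at 11.3 or less. miR-133a-3p alone made up 79.7% to 81.0% of the members' sum in withdrawal and 81.6% to 82.2% in controls.

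**Figure D1:**
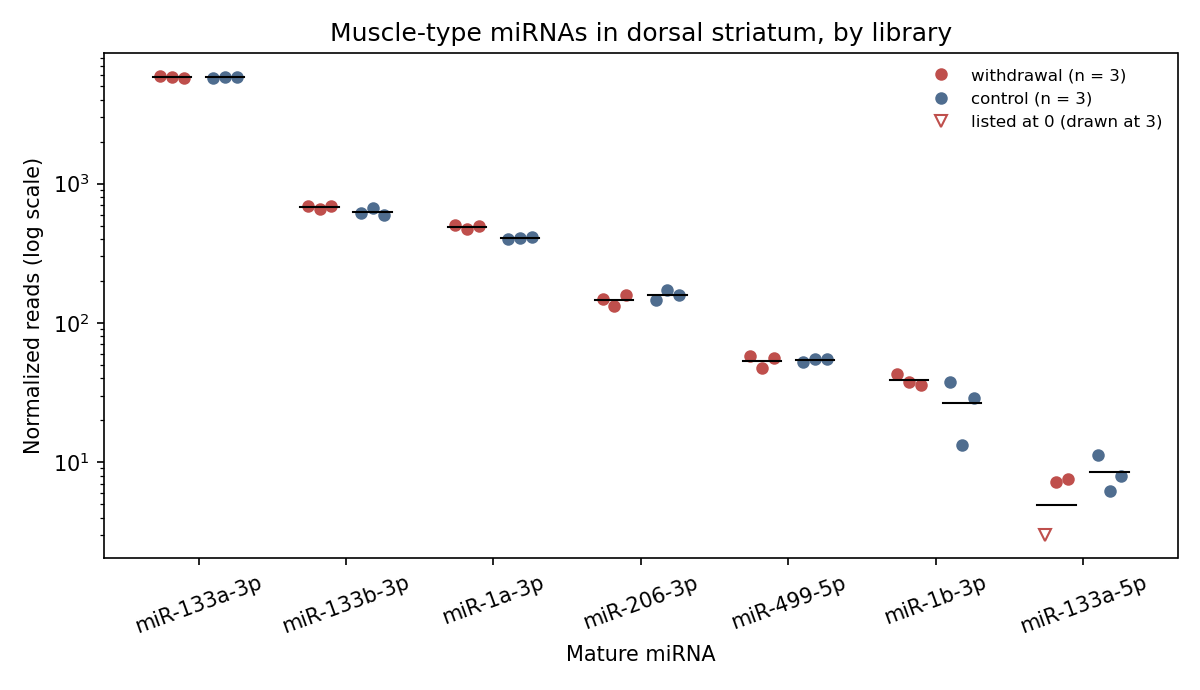
Normalized reads of the 7 muscle-type miRNAs (log axis) in each withdrawal and control library, with black bars at the group means (n = 3 each). miR-1a-3p is the tested member whose groups do not overlap (476 and above in withdrawal, 415 and below in controls), and miR-133a-5p is listed at 0 in withdrawal 1.

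In withdrawal, 1 of the 6 tested muscle-type miRNAs was higher and none was lower, in limma with Benjamini-Hochberg adjustment over all 699 tested miRNAs. Over all tested miRNAs, 6.58% passed, 3% higher and 3.58% lower (21 and 25 miRNAs), a balance that turned to 46 higher and 15 lower with equal library totals. The median log2 fold change (withdrawal over control, on the log2(value + 1) scale) was 0.06 for the 6 members and 0.00 for all tested miRNAs, and 3 of 6 members had positive values. The member that passed was miR-1a-3p.

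miR-1a-3p, the main muscle differentiation miRNA, stood at 502, 476 and 494 normalized reads in withdrawal libraries 1 to 3 and at 402, 404 and 415 in control libraries 1 to 3. All withdrawal libraries were above all controls, with a gap of 60.9 between the groups. Groups did not overlap in 27.6% of all tested miRNAs, and in 13% withdrawal was the higher one. The means were 491 ± 13.1 in withdrawal and 407 ± 7.03 in controls (SD, n = 3 each), 20.5% higher in withdrawal. The log2 fold change was 0.27 ± 0.06 (SE), with a 95% interval of 0.13 to 0.41 (limma, adjusted p = 0.0246). Among the 109 tested miRNAs within 2-fold of its level, 7 had a larger change in either direction, and 6 of the 109 passed.

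The rise of miR-1a-3p was small and its call marginal. Its libraries scattered by 2.67% in withdrawal and 1.73% in controls (SD over mean), whereas counting error alone would give 5.31% in the library with fewest reads, if a step is 1 read. The counting error of the group difference was 0.06 on the log2 scale, near the SE that limma gave. Only 4 of the 109 miRNAs of like level had a smaller residual SD. limma without a trend of variance on level called 0 of 699 miRNAs (112 at an unadjusted p under 0.05) and gave miR-1a-3p an adjusted p = 0.141. The adjusted p was 0.0593 with quantile normalization. It was 0.0522, 0.0893 and 0.0553 without control 1, 2 or 3, and 0.0749 and 0.0704 without withdrawal 1 or 2. Without withdrawal 3 it was 0.0458, and the log2 fold change lay between 0.25 and 0.30 in all 16 alternative settings.

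**Figure D2:**
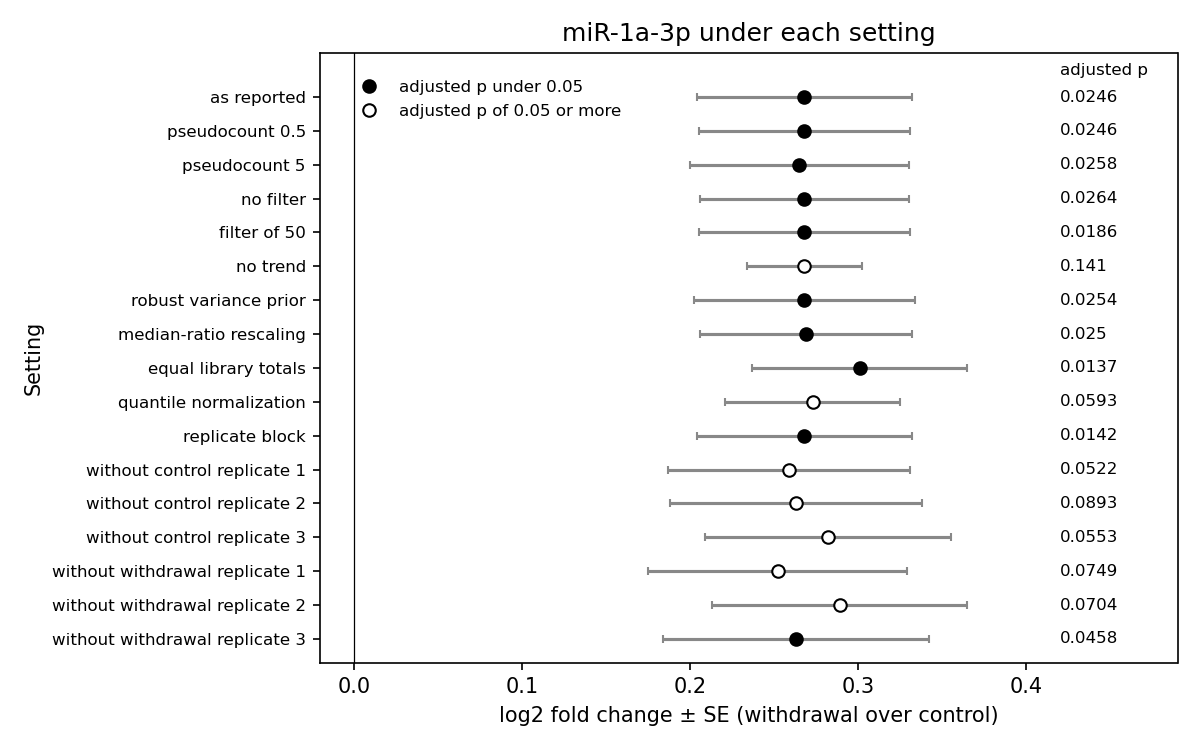
log2 fold change of miR-1a-3p (withdrawal over control, x axis) with its SE under each setting (rows), filled where the limma adjusted p was under 0.05. The value stays between 0.25 and 0.30, while the adjusted p, printed at the right, ranges from 0.0137 to 0.141.

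miR-133a-3p, made from the same transcripts as miR-1a-3p, did not pass. It stood at 5942, 5810.5 and 5699.95 normalized reads in withdrawal libraries and at 5777, 5864 and 5832 in controls. Withdrawal libraries lay both above and below the controls. The log2 fold change was 0.00 ± 0.03, with a 95% interval of -0.07 to 0.07 (limma, adjusted p = 0.973). The sign of this value was positive under equal library totals and quantile normalization (0.03 in each), and also without control 2 or withdrawal 3. It was the most precisely measured member, with a counting error of 1.4% in the library with fewest reads.

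miR-133b-3p, the near-identical relative encoded beside miR-206, stood at 693, 659 and 697 normalized reads in withdrawal libraries and at 614, 673 and 599.9 in controls. The groups overlapped through control 2 and withdrawal 2. The log2 fold change was 0.12 ± 0.06, with a 95% interval of -0.02 to 0.26 (limma, adjusted p = 0.274).

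miR-206-3p, which shares the miR-1 seed and is confined largely to skeletal muscle in adult mice, stood at 147, 133.1 and 159 normalized reads in withdrawal libraries and at 147, 173 and 158 in controls. The groups overlapped. The log2 fold change was -0.12 ± 0.11, with a 95% interval of -0.36 to 0.12 (limma, adjusted p = 0.570). The value was -0.06 without withdrawal 2 and also without control 2, and -0.18 without withdrawal 3 or control 1.

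The remaining members were measured at low levels. miR-499-5p, a slow muscle and heart miRNA, stood at 57.7, 47.3 and 55.9 normalized reads in withdrawal libraries and at 52.1, 55.1 and 54.9 in controls, with a log2 fold change of -0.01 ± 0.17 (limma, adjusted p = 0.966). Its groups overlapped, and its sign was positive under equal library totals (0.02) and without withdrawal 2 (0.07). miR-1b-3p stood at 42.8, 37.5 and 35.9 in withdrawal libraries and at 37.4, 13.3 and 28.9 in controls. Its low control mean came from control 2, and its log2 fold change of 0.64 ± 0.32 did not pass (limma, adjusted p = 0.257). Without control 2 that value was 0.23 (limma, adjusted p = 0.664). miR-133a-5p, the minor arm of miR-133a, was listed at 0 in withdrawal 1, stood at 7.15 and 7.51 in withdrawal 2 and 3 and at 11.3, 6.22 and 7.99 in controls. It was not tested. No positive value in any library was under 4 steps, so a listed 0 may cover a smaller value, and no fold change is given.

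**Figure D3:**
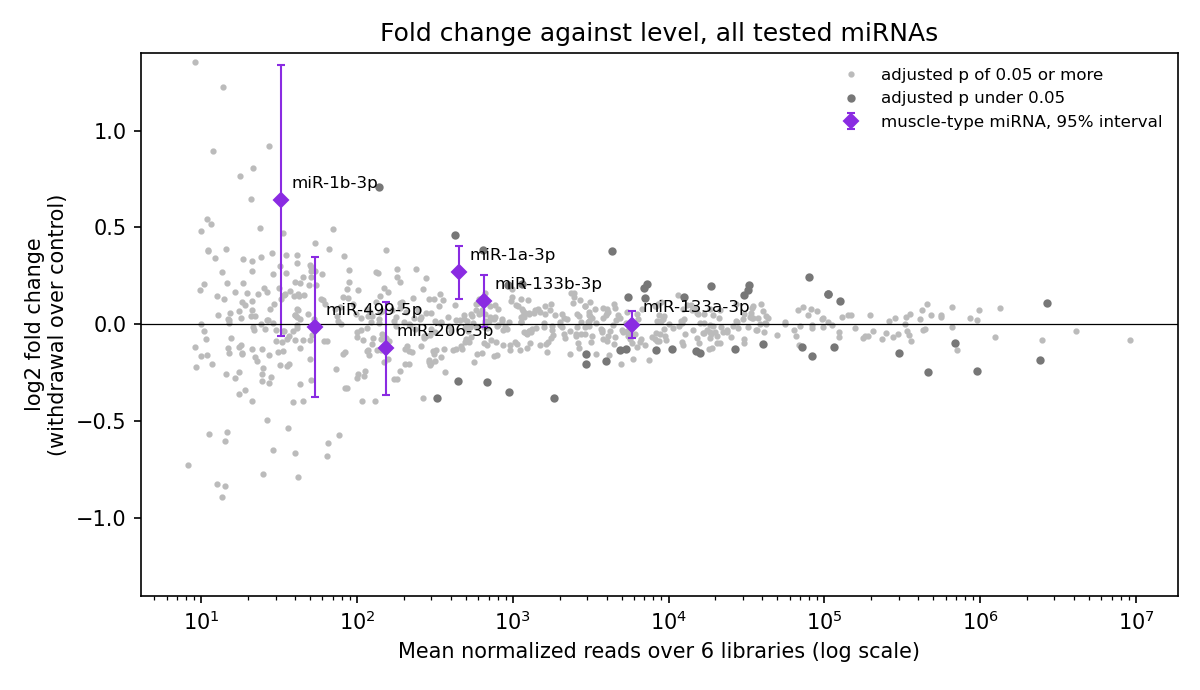
log2 fold change (withdrawal over control) against mean normalized reads (log axis) for the tested miRNAs, with the 6 tested muscle-type miRNAs and their 95% intervals in purple and 4 of 699 miRNAs outside the drawn range of -1.4 to 1.4. The interval of miR-1a-3p (0.13 to 0.41) lies above 0, those of the other members include 0, and intervals widen toward low levels.

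Ratios between members within a library do not depend on how libraries are scaled. miR-133a-3p was 11.8, 12.2 and 11.5 times the level of miR-1a-3p in withdrawal libraries 1 to 3, against 14.4, 14.5 and 14.0 times in controls. The groups did not overlap, so the products of the shared transcripts stood closer to each other in level in each withdrawal library. The log2 ratio of miR-1a-3p to miR-133a-3p was -3.56 ± 0.04 in withdrawal and -3.83 ± 0.02 in controls (SD, n = 3 each), a difference of 0.27 ± 0.03 (SE). The exact two-sided permutation test gave p = 0.1, the smallest that 3 against 3 allows, and 0.15 adjusted over the 3 ratios computed. The SE of this difference was below the counting error for miR-1a-3p alone (0.055 on the log2 scale, if a step is 1 read). With miR-133a-3p at -0.002, the difference nearly equals the log2 fold change of miR-1a-3p (0.268).

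miR-1a-3p was 3.41, 3.58 and 3.12 times the level of its seed relative miR-206-3p in withdrawal libraries, against 2.73, 2.33 and 2.63 times in controls. These groups did not overlap either, and the log2 ratio differed by 0.39 ± 0.09 (exact permutation p = 0.1, adjusted 0.15). The log2 ratio of miR-206-3p to miR-133a-3p was -5.31 ± 0.14 in withdrawal and -5.19 ± 0.11 in controls, with overlapping groups (difference -0.12 ± 0.10, exact permutation p = 0.4, adjusted 0.4). The first pair of ratios share miR-1a-3p, so they are not separate evidence. Groups did not overlap in 27.6% of single tested miRNAs, and no such share was computed for ratios.

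**Figure D4:**
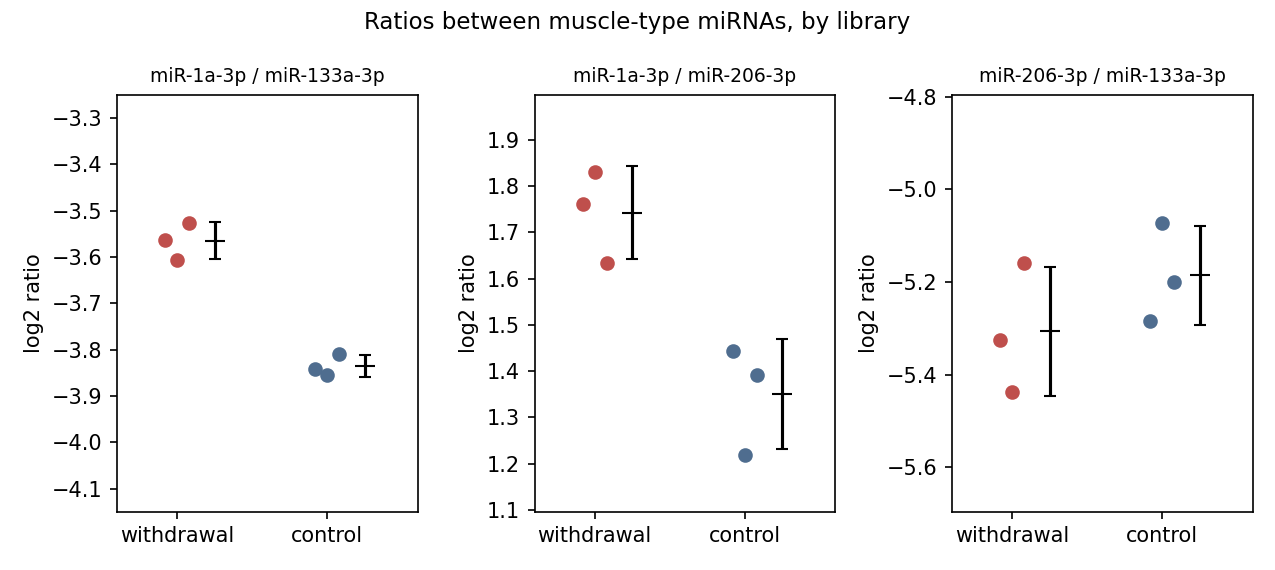
log2 ratios between miR-1a-3p, miR-133a-3p and miR-206-3p in each withdrawal and control library, with mean and SD (black, n = 3 each) and y axes of equal span. Both ratios with miR-1a-3p on top are higher in every withdrawal library than in any control, and the ratio of miR-206-3p to miR-133a-3p overlaps.

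Over the 6 libraries, the tested miRNAs of mean level at least 100 most like miR-1a-3p were miR-652-3p (Pearson r = 0.97), miR-486b-5p (0.96) and miR-486a-5p (0.96). miR-486 is encoded at the Ank1 locus and known from muscle and red blood cells. The most alike to miR-133a-3p were miR-34b-3p (0.88), miR-582-3p (0.88) and miR-539-5p (0.85). Those for miR-206-3p were miR-1982-3p (0.93), miR-30d-3p (0.93) and let-7f-2-3p (0.89). For miR-133b-3p they were miR-154-3p (0.95), miR-34b-5p (0.92) and miR-382-3p (0.91). For miR-499-5p they were miR-190b-5p (0.88), miR-181b-1-3p (0.86) and miR-543-3p (0.84), and for miR-1b-3p they were miR-30b-3p (0.97), miR-874-3p (0.91) and miR-879-5p (0.91). No other muscle-type miRNA was among these nearest in level pattern, and miR-499-5p and miR-1b-3p could not be, as their mean level was under 100. Each r rests on 6 libraries, includes the group difference and was picked as the highest among 504 miRNAs of that level, so it is given as a description. Between miR-1a-3p and miR-133a-3p, r was 0.01 over levels and 0.32 over deviations from the group means, and between miR-1a-3p and miR-133b-3p it was 0.73 and 0.10. Between miR-133b-3p and miR-206-3p, which share a transcript, it was 0.08 and 0.80. Over all pairs of tested members, r over deviations ranged from -0.785 (miR-133b-3p and miR-1b-3p) to 0.89 (miR-1a-3p and miR-499-5p). Deviations from the group means leave only 4 free values in 6 libraries, so these r are also no more than a description.

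Other miRNAs of skeletal and heart muscle stood as follows. Of 4 measured, 2 were higher, miR-486a-5p and miR-486b-5p, and 2 did not pass, beside 3% higher over all tested miRNAs. The median log2 fold change of 0.05 takes this near-equal pair as 2 values, and the values of the others were negative. miR-486a-5p stood at 111256 ± 1984 normalized reads in withdrawal and 99718 ± 2057 in controls (log2 fold change 0.16 ± 0.03, limma, adjusted p = 0.00673). miR-486b-5p had nearly the same values in every library, so the pair counts as 1 observation. miR-208b-3p stood at 118, 142 and 158 in withdrawal libraries and at 140.4, 164 and 173 in controls, with overlapping groups (-0.19 ± 0.13, limma, adjusted p = 0.405). miR-378a-3p, encoded in Ppargc1b and linked to metabolism, stood at -0.06 ± 0.03 (limma, adjusted p = 0.216).

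Markers of other cell types in and around the striatum were set beside miR-1a-3p. Fewer cells of a type and less RNA per cell cannot be told apart in such bulk samples. None of the 4 vascular smooth muscle and pericyte miRNAs passed, and their sum was 993026 to 1035474 normalized reads in withdrawal and 948028 to 980553 in controls, nearly all of it miR-143-3p (0.08 ± 0.03, limma, adjusted p = 0.141). miR-145a-5p, made from the same transcript as miR-143-3p, stood at -0.06 ± 0.06. None of the 3 blood miRNAs passed, and their sum was 12782 to 13994 in withdrawal and 11457 to 12721 in controls, with the red cell miR-451a at 0.15 ± 0.05 (limma, adjusted p = 0.0688). The sum of the choroid plexus miR-204-5p and miR-211-5p, neither of which passed (miR-204-5p at 0.07 ± 0.03, limma, adjusted p = 0.156), was 90886 to 93506 in withdrawal and 86967 to 90455 in controls. In each of these 3 sums all withdrawal libraries were above all controls. The sum of the other skeletal and heart muscle list (394941 to 407601 in withdrawal and 375427 to 393430.4 in controls) is not set beside them. It adds the near-equal values of miR-486a-5p and miR-486b-5p as if they were separate, and its other members, miR-378a-3p and miR-208b-3p, overlapped between the groups. Single tested miRNAs were higher without overlap in 13% of cases, and no such share was computed for sums. The choroid plexus sum was nearly all miR-204-5p, and miR-211-5p overlapped between the groups. In the vascular list miR-143-5p, miR-145a-5p and miR-145a-3p overlapped too. The blood sum stood apart by a small margin, and miR-451a, its most abundant member, overlapped (11427 in withdrawal 3 and 11436 in control 1). The part of these sums in the rise of miR-1a-3p was not tested.

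The endothelial sum was lower, at 303351 to 313594 in withdrawal and 319628 to 324696 in controls, and miR-126a-3p fell (-0.10 ± 0.03, limma, adjusted p = 0.0347) while the more abundant miR-126a-5p did not pass (-0.07 ± 0.03). The sum of miR-199a-3p and miR-199a-5p, known from mesenchyme and meninges, overlapped between the groups, at 841 to 884 in withdrawal and 796 to 861 in controls, and neither passed, with miR-199a-3p at 0.04 ± 0.06 and miR-199a-5p at 0.49 ± 0.19. Of 5 neuronal miRNAs, miR-138-5p fell (-0.25 ± 0.05, limma, adjusted p = 0.00934) and 4 did not pass. Of these 4, miR-9-5p (0.09 ± 0.03) was higher without overlap between the groups. miR-128-3p (-0.13 ± 0.04, limma, adjusted p = 0.0543) was lower without overlap. The groups of miR-124-3p (0.05 ± 0.03) and miR-137-3p (0.01 ± 0.03) overlapped. The oligodendrocyte sum of 3 miRNAs was lower in all withdrawal libraries (97921 to 100514) than in any control (104793 to 110978), and of its members miR-338-3p fell (-0.16 ± 0.03, limma, adjusted p = 0.00723) and 2 did not pass. Most of this sum was miR-338-3p, and the groups of miR-219a-2-3p (-0.03 ± 0.03) and miR-219a-5p (0.08 ± 0.05) overlapped. Of single tested miRNAs, 14.6% were lower without overlap, and no such share was computed for sums. Over all tested miRNAs, 3.58% passed as lower, beside the falls of miR-126a-3p, miR-138-5p and miR-338-3p. miR-208a-3p and miR-214-3p, also on the marker lists, were not among the 756 mature miRNAs listed. None of the measured markers was listed at 0 in any library.

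**Figure D5:**
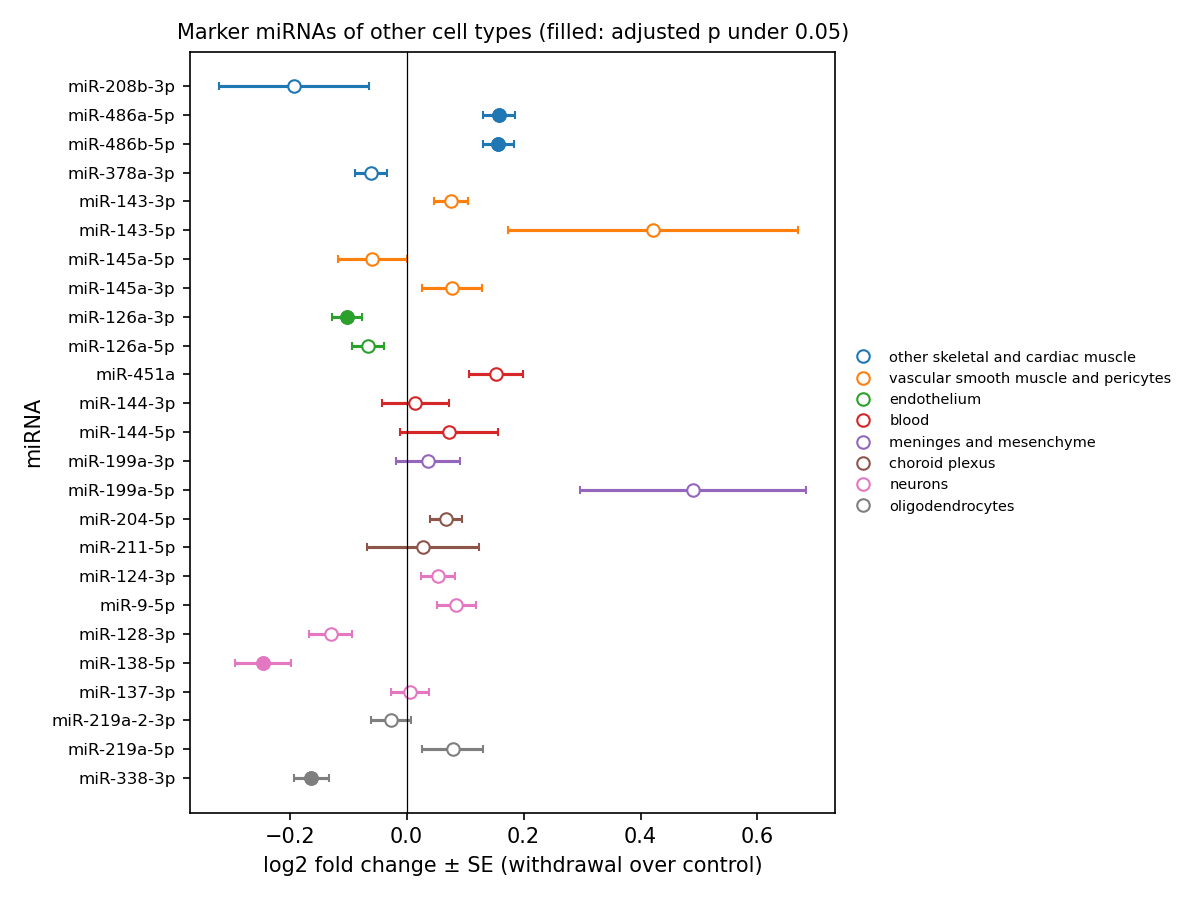
log2 fold change (withdrawal over control) with SE for marker miRNAs of other muscle, vascular, blood, mesenchymal, choroid plexus, neuronal and oligodendrocyte cells, filled where the limma adjusted p was under 0.05. The miR-486 pair lies above 0 (0.16 each), and miR-126a-3p, miR-138-5p and miR-338-3p lie below (-0.10, -0.25 and -0.16).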

How the data were processed

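Per the labels' protocols, RNA was extracted with Trizol and made into TruSeq small RNA libraries. The authors deposited 1 table of normalized signal, taken as counts that had been scaled by a size factor for each library. Dividing a column by its step gave whole numbers (100% within 0.01), and the smallest positive value was 4 or 5 steps. The submitters' processing notes name mm9 and DESeq2. How reads were aligned, annotated or shared between miRNAs is not given in the sources used here.

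miRNAs of at least 10 in at least 3 libraries (699 of 756) were fitted in limma 3.58.1 (R 4.3.3) on log2(value + 1) with empirical Bayes moderation that lets the variance follow the level (the trend), two-sided, at a Benjamini-Hochberg adjusted threshold of 0.05. Fold changes on this scale understate the change of low miRNAs. The code was tested on simulated data. Member ratios were compared with exact permutation tests (scipy 1.17.1). Tables and plots were made in Python 3.11.15 with pandas 2.3.3 and matplotlib 3.10.9. Members and lists were chosen with earlier results of these data known. All members are named, as are the most abundant miRNA and the one of smallest p of each marker list and the 3 most alike miRNAs of a member. Alternatives were other pseudocounts, filters, variance priors and scalings, a replicate block and each library left out. Counting errors assume that a step is 1 read and cover counting only.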

Additional observations from a re-analysis of the deposited data

How the results depend on the processing

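The count of 46 miRNAs past the threshold was 0 without the trend of variance on level, 23 after quantile normalization, which shared 14 with the 46 and whose cause was not tested, 61 with equal library totals (46 higher and 15 lower), and 17 to 58 with one library left out (17 without control 2, and 21 without control 3 or withdrawal 2). Under a replicate block it was 106, all 46 among them, and miR-1a-3p stood at 0.27 (limma, adjusted p = 0.0142). The deviations of libraries with the same number correlated at -0.07, 0.09 and 0.04, and for 3 of 6 libraries the best partner had their number, so the numbers were not taken as pairs. miR-1a-3p passed in 9 of 16 alternatives; its log2 fold change was 0.27 both without the trend and with quantile normalization, where it did not pass, and 0.25 to 0.29 with one library left out, where fewer samples enter. miR-133a-3p turned to 0.031 with equal library totals and 0.033 with quantile normalization, and lay between -0.017 and 0.013 when single libraries were dropped. miR-499-5p turned to 0.018 with equal library totals and ranged from -0.069 to 0.071. The other members, miR-133b-3p, miR-206-3p and miR-1b-3p, kept their direction and did not pass in any alternative run, and miR-1b-3p was not tested under the filter of 50. The log2 ratio differences kept their sign, at 0.25 to 0.29 for miR-1a-3p to miR-133a-3p, 0.33 to 0.44 for miR-1a-3p to miR-206-3p and -0.20 to -0.06 for miR-206-3p to miR-133a-3p with one library left out. The planned count tests need raw reads and were left out. Depth limits miR-1b-3p and miR-133a-5p most.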
